A study of Mus musculus with 7 samples.

Results

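The glucocorticoid receptor and 7 genes that it is known to induce were described in RNA-seq of B-cell precursor (BCP) cells from Eμ-Ret mice. The members were Nr3c1, which encodes the receptor, and Tsc22d3, Fkbp5, Zbtb16, Klf9, Per1, Sgk1 and Txnip. They were chosen by name, as the rows of the deposited table that carry these gene symbols, and all 8 of 8 names were found among the 24341 genes of the table. All mice were hemizygous for Eμ-Ret, an oncogenic Ret fusion transgene driven by the immunoglobulin heavy chain enhancer, on a BALB/c background. The labels call the cells of both groups FACS-sorted BCP from spleen. The study defines the BCP phenotype by intermediate B220 and CD43 with high BP-1. For its culture experiments it used most leukemic spleens without enrichment, and its methods do not say how the leukemic cells for RNA were purified. Young, healthy mice gave the 4 preleukemic samples, and older, moribund mice with overt disease gave the 3 leukemic samples, so age and disease differ together and cannot be told apart. No transgene-negative sample was used here, and the labels name no glucocorticoid treatment, so the values describe cells under the hormone of the animal itself. Ages were not given per sample.

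The glucocorticoid receptor is a nuclear receptor that waits in the cytoplasm in a complex with the chaperone HSP90 and its co-chaperones. When it binds the hormone, corticosterone in mice, it moves to the nucleus and binds glucocorticoid response elements, which are paired, inverted arms of the sequence AGAACA with a spacer between them. Synthetic glucocorticoids kill many B-cell precursor leukemia cells and are a mainstay of treatment of acute lymphoblastic leukemia (ALL), which makes the level of the receptor and of its induced genes of interest in a mouse model of that disease. The mRNA of an induced gene reports on the receptor only in part, since each of these genes also answers to other signals.

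To show what lies next to the start sites, the 250 bases before each RefSeq transcript start (GRCm38.p6, the reference assembly and not the BALB/c genome) were searched on both strands. The search covered 14 windows, which belong to 6 of the 8 members. No window of Nr3c1 or Zbtb16 was searched, so whether their starts have these motifs nearby was not tested. The letters searched were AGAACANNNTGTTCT, a full palindromic glucocorticoid response element, AGAACA, a single arm of it (also counted within the full element), CACGTG, the E-box bound by clock and Myc family factors, and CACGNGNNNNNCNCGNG, a carbohydrate response element. The full element was present in 3 of 32851 windows of all genes (0.00913%), and 1 of these belonged to Sgk1. The single arm was found in 4 of the 14 windows and in 16.1% of all windows. These 4 windows belong to Sgk1 and Tsc22d3 alone, and windows of the same gene are not separate members. The E-box was found in 3 of the 14 windows and in 6.02% of all windows. The carbohydrate response element was found in 1 of the 14 windows and in 0.28% of all windows.

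4 of these windows are shown because they hold the full element, the carbohydrate response element, an E-box, or belong to the member that rose. Each is printed in the direction of transcription and ends at the base before the start site, and capitals mark every match to the letters above. The Sgk1 window is chr10:21993640-21993889 (plus strand) and touches no annotated exon. The Txnip window is chr3:96557707-96557956 (plus strand) and lies in an exon of Gm15441, a noncoding RNA on the other strand. The Fkbp5 window is chr17:28486150-28486399 (minus strand), and the Tsc22d3 window, before 1 of 3 starts in RefSeq, is chrX:140542669-140542918 (minus strand), with 73 bases in the coding sequence of a longer Tsc22d3 transcript.
Sgk1: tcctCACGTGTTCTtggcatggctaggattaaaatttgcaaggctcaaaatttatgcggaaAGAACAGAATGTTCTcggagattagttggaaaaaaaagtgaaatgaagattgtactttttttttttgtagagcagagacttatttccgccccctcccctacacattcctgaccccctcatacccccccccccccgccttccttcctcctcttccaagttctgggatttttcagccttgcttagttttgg
Txnip: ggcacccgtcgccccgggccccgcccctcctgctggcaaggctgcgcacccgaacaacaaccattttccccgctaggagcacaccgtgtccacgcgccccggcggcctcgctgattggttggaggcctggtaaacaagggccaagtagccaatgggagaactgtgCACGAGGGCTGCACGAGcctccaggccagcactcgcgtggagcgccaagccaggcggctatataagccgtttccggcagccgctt
Fkbp5: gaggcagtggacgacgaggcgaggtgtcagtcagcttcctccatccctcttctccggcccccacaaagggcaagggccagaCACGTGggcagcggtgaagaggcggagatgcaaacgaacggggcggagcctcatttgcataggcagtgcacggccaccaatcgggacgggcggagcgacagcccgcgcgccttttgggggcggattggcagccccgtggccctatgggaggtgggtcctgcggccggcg
Tsc22d3: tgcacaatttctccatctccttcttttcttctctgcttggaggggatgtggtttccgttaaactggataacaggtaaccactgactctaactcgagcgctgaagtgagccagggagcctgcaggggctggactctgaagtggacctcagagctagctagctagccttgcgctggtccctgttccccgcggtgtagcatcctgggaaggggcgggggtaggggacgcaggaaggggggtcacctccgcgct
In the Sgk1 window the full element reads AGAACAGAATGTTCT and lies at -189 to -175 from the start, and the E-box at -246 to -241 overlaps another single arm at -242 to -237. In the Txnip window the carbohydrate response element reads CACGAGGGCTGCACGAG and lies at -85 to -69. The E-box of the Fkbp5 window lies at -169 to -164, and an E-box of Per1 lies at -166 to -161 of the window chr11:69098699-69098948. The printed Tsc22d3 window holds none of the 4 motifs, and of the other Tsc22d3 windows 1 holds a single arm. A match is a string of letters and not a bound site, and elements farther from the start were not searched.

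Values are FPKM, fragments scaled by the length of the transcript and by the depth of the library, which put genes on a scale per length. Depth, read from the steps of low values, was 13.4 to 14.7 M fragments in the preleukemic and 15.3 to 16.1 M in the leukemic samples. Genes of the antigens that define the phenotype were expressed in every sample. Ptprc, which encodes B220, was at 60.0 to 87.2 FPKM in the preleukemic and at 48.7 to 79.8 in the leukemic samples. Enpep, which encodes BP-1, was at 134 to 210 FPKM in the preleukemic samples and at 19.1, 102 and 77.2 in leukemic replicates 1 to 3. The summed level of 14 BCP markers was 6523 to 8177 FPKM in the preleukemic and 3513 to 5368 in the leukemic samples, with 4 markers lower and 0 higher by limma (10 and 0 at an unadjusted p under 0.05). Markers of other cells were higher in leukemic samples. The erythroid sum was 245 to 1150 FPKM against 2232 to 8188 (11 of 11 markers tested called higher), the macrophage sum 14.7 to 25.2 against 55.9 to 275 (7 of 11), and the neutrophil sum 147 to 850 against 1396 to 1728 (3 of 8). The sum for T and NK cells was 14.9 to 21.4 against 13.1 to 74.7 (0 of 8 called by limma, and 2 higher and 1 lower at an unadjusted p under 0.05). No marker with a row was at the floor of 0.01 in every sample. Leukemic replicate 2 had the highest erythroid, macrophage and T and NK cell sums. In such bulk samples, fewer cells of a type and less RNA per cell cannot be told apart, and the part of these other cells in the values below was not tested unless a value is given.

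**Figure D1:**
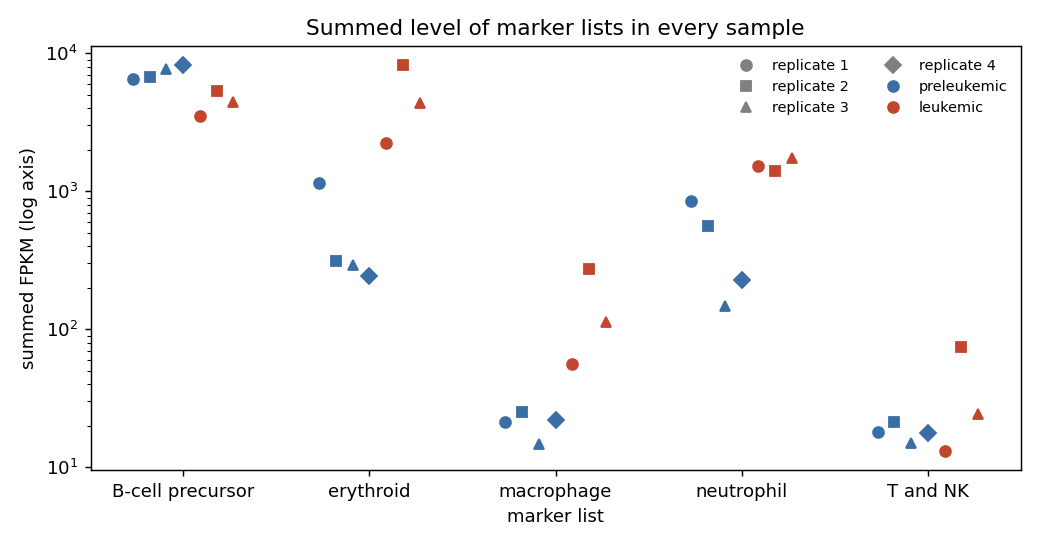
Summed FPKM (log axis) of 5 marker lists in each sample, with 1 point per sample, blue for preleukemic and red for leukemic, and the shape for the replicate number. The erythroid, macrophage and neutrophil sums of the 3 leukemic samples lie above all 4 preleukemic samples, and the BCP sums lie below them.

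Of the 8 members, 7 passed the filter on low values (a sum of at least 10 FPKM over the 7 samples). Of these 1, Tsc22d3, was called higher in the leukemic samples. The test was limma on log2(FPKM + 1) with Benjamini-Hochberg adjustment over all 10541 genes tested, and genes with an adjusted p under 0.05 were called. The calls made up 14.7% of the genes tested, 8.47% higher and 6.26% lower, and 1 of 7 is near the background. The median log2 fold change was 0.30 over the 7 members and -0.02 over all genes tested, with 6 members above 0 and 1 below. At an unadjusted p under 0.05 there was 1 member in each direction, Tsc22d3 and Txnip, while about 34% of all genes tested lay under that level. The same shares over all genes stand beside the counts of the marker and gene lists. The groups did not overlap for 1 member, against 32.0% of all genes tested. The p-values measure the spread between these samples.

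**Figure D2:**
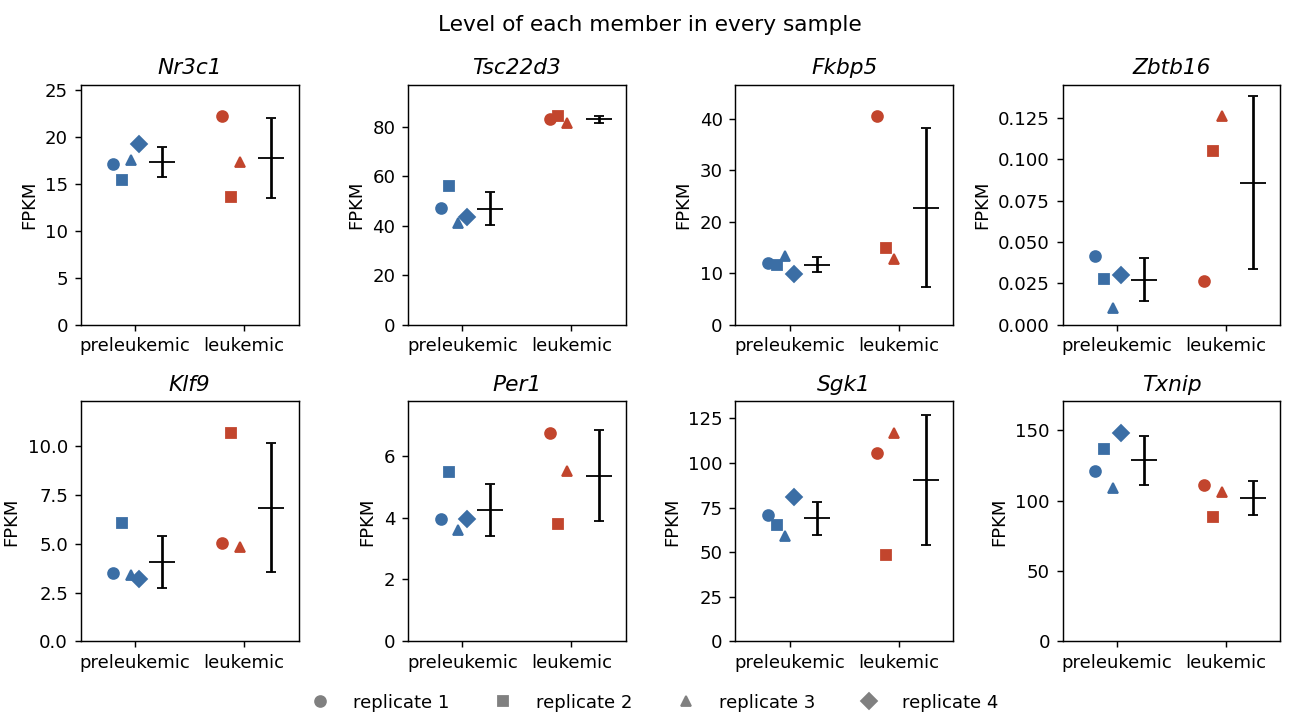
FPKM of the 8 members (linear axes from 0, a separate scale for each gene), with 1 point per sample and the mean ± SD of each group (n = 4 preleukemic, n = 3 leukemic) as a bar beside the points. Only for Tsc22d3 do all 3 leukemic samples, at 81.4 to 84.3 FPKM, lie apart from the preleukemic samples, at 41.0 to 56.1.

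Nr3c1, the receptor, had close mean levels in the groups, and the leukemic samples were spread more widely. It was at 17.1, 15.4, 17.6 and 19.2 FPKM in preleukemic replicates 1 to 4 and at 22.2, 13.6 and 17.4 FPKM in leukemic replicates 1 to 3. Both the highest and the lowest of the 7 values were leukemic, in replicates 1 and 2. The means were 17.3 ± 1.56 (SD, n = 4) and 17.7 ± 4.29 (SD, n = 3). The log2 fold change was 0.01 with a 95% interval from -0.36 to 0.38 (limma, adjusted p = 0.967), an interval that leaves room for differences of up to those sizes. Without leukemic replicate 1 the log2 fold change was -0.16 and without leukemic replicate 2 it was 0.18, and with FPKM scaled to the sum without globin genes it was -0.11, or 0.03 relative to the median of all genes, and none of these was called. The gene lies at chr18:39410545-39487245 (GRCm38, minus strand).

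The 5 genes whose profile was nearest to that of Nr3c1 were Zfp422, Dtnbp1, Ccni, Rad51d and Paip2. Likeness was the mean absolute difference, over the 7 samples, of log2(FPKM + 1) less its preleukemic mean, and 10534 genes were compared. The distances were 0.0348, 0.0407, 0.0416, 0.0448 and 0.0528 on the log2 scale, against a median of 0.228 over all genes compared. In Ccni, for example, leukemic replicate 1 was again the highest, at 147 FPKM, and replicate 2 the lowest, at 90.6 FPKM.

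Tsc22d3 encodes GILZ, a leucine zipper protein that binds and restrains NF-κB and AP-1 and is induced by glucocorticoids in most blood cells. It was at 47.0, 56.1, 41.0 and 43.7 FPKM in preleukemic replicates 1 to 4 and at 83.2, 84.3 and 81.4 FPKM in leukemic replicates 1 to 3. The leukemic values lay within a few FPKM of each other and all lay above the preleukemic values. The means were 46.9 ± 6.56 (SD, n = 4) and 83.0 ± 1.48 (SD, n = 3), and the log2 fold change was 0.82 with a 95% interval from 0.56 to 1.08 (limma, adjusted p = 0.0109). Leaving out any single sample gave log2 fold changes from 0.76 to 0.90 and kept the call. Without preleukemic replicate 4 it was kept by a small margin (limma, adjusted p = 0.0491).

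In leukemic replicates 1 to 3 the erythroid sum was 2232, 8188 and 4325 FPKM, the macrophage sum 55.9, 275 and 113, and the neutrophil sum 1516, 1396 and 1728. In preleukemic replicates 1 to 4 the erythroid sum was 1150, 310, 290 and 245 FPKM, the macrophage sum 21.2, 25.2, 14.7 and 22.0, and the neutrophil sum 850, 562, 147 and 228. Preleukemic replicates 1 and 2 had the higher neutrophil sums and the higher Tsc22d3 of their group, but in opposite order. In the leukemic samples the order by neutrophil sum was also opposite to that by Tsc22d3, whose values there lay close together. The macrophage sum and Tsc22d3 were both highest in replicate 2 of each group and lowest in preleukemic replicate 3. Among the leukemic samples the macrophage sum was lowest in replicate 1 and Tsc22d3 in replicate 3. The part of these cells in the Tsc22d3 difference was not tested. The ratio of Tsc22d3 to Nr3c1, both in FPKM, was 2.74, 3.64, 2.34 and 2.28 in preleukemic replicates 1 to 4 and 3.75, 6.18 and 4.69 in leukemic replicates 1 to 3. The ranges of the ratio did not overlap, although the gap between the highest preleukemic and the lowest leukemic value was small. Tsc22d3 lies at chrX:140539529-140600522 (minus strand), and the median log2 fold change of the 327 genes tested on chromosome X was -0.05.

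Fkbp5 encodes FKBP51, a co-chaperone that lowers the affinity of the receptor for its hormone and, being induced by it, closes a negative feedback loop. It was at 11.9, 11.7, 13.3 and 9.89 FPKM in preleukemic replicates 1 to 4 and at 40.6, 15.0 and 12.8 FPKM in leukemic replicates 1 to 3. A single leukemic sample, replicate 1, stood far above the rest, while replicate 3 lay within the preleukemic range. The means were 11.7 ± 1.40 (SD, n = 4) and 22.8 ± 15.4 (SD, n = 3), and the log2 fold change of 0.73 did not pass the test (95% interval -0.11 to 1.57, limma, adjusted p = 0.194). Without leukemic replicate 1 it was 0.23.

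Leukemic replicate 1 was also the sample with the highest Nr3c1 and Per1 and with the lowest Enpep (19.1 FPKM), and their part in the Fkbp5 value was not tested. Fkbp5 lies at chr17:28398753-28486149 (minus strand). Of the 592 genes tested on chromosome 17, 199 were called higher and 3 lower, 85.0% had a log2 fold change above 0 and the median was 0.35. The part of this in Fkbp5 was not tested.

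Sgk1 encodes a serine and threonine kinase of the AKT family that is induced by glucocorticoids and mineralocorticoids and by serum. It was at 70.8, 65.2, 58.8 and 81.0 FPKM in preleukemic replicates 1 to 4 and at 105, 48.6 and 117 FPKM in leukemic replicates 1 to 3. Leukemic replicates 1 and 3 lay above every preleukemic sample and replicate 2 below every one. The means were 69.0 ± 9.41 (SD, n = 4) and 90.3 ± 36.6 (SD, n = 3), with a log2 fold change of 0.30 (95% interval -0.39 to 0.98, limma, adjusted p = 0.494). This value depended on which leukemic sample was left out. Without leukemic replicate 1 the log2 fold change was 0.14, and without leukemic replicate 3 it was 0.06. Neither was called (limma, adjusted p = 0.800 and 0.892). Without leukemic replicate 2 it was 0.69 and the gene was called (limma, adjusted p = 0.0273). That replicate had the highest erythroid sum (8188 FPKM) and macrophage sum (275 FPKM), and their part in its low Sgk1 was not tested. Sgk1 lies at chr10:21882184-21999902 (plus strand), and its window with the full response element is the one printed above.

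Klf9 encodes a zinc finger repressor that the receptor induces in many tissues. It was at 3.52, 6.04, 3.42 and 3.21 FPKM in preleukemic replicates 1 to 4 and at 5.03, 10.7 and 4.85 FPKM in leukemic replicates 1 to 3. Replicate 2 was the highest in each group, and the preleukemic replicate 2 exceeded leukemic replicates 1 and 3. Preleukemic and leukemic replicate 2 also had the highest macrophage sums (25.2 and 275 FPKM) of their groups. The same held for the T and NK cell sums (21.4 and 74.7 FPKM). The part of these cells in Klf9 was not tested. The means were 4.05 ± 1.34 (SD, n = 4) and 6.86 ± 3.33 (SD, n = 3), with a log2 fold change of 0.59 (95% interval -0.10 to 1.28, limma, adjusted p = 0.197). Without leukemic replicate 2 it was 0.27. Klf9 lies at chr19:23141226-23166911 (plus strand).

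Per1 encodes a repressor of the circadian clock that glucocorticoids also induce directly. It was at 3.95, 5.49, 3.60 and 3.94 FPKM in preleukemic replicates 1 to 4 and at 6.74, 3.81 and 5.50 FPKM in leukemic replicates 1 to 3. The groups overlapped, with leukemic replicate 2 below 3 of the 4 preleukemic samples. The means were 4.25 ± 0.843 (SD, n = 4) and 5.35 ± 1.47 (SD, n = 3), with a log2 fold change of 0.26 (95% interval -0.20 to 0.72, limma, adjusted p = 0.379). Per1 lies at chr11:69098956-69109957 (plus strand).

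Txnip encodes an arrestin-like protein that inhibits thioredoxin and curbs glucose uptake, and it answers to glucose as well as to glucocorticoids. It had the highest mean level of the 8 genes in both groups, although Sgk1 exceeded it in leukemic replicate 3, and was the only member tested with a fold change below 0. It was at 121, 137, 109 and 148 FPKM in preleukemic replicates 1 to 4 and at 111, 88.2 and 106 FPKM in leukemic replicates 1 to 3. Leukemic replicates 2 and 3 lay below every preleukemic sample, and leukemic replicate 1 exceeded preleukemic replicate 3 by a small margin. The means were 129 ± 17.4 (SD, n = 4) and 102 ± 12.1 (SD, n = 3). The log2 fold change was -0.33 (95% interval -0.64 to -0.02), and the adjusted p did not pass the threshold (limma, adjusted p = 0.124).

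With FPKM scaled to the sum without globin genes, a scaling that moved the median of all genes tested by -0.12, the log2 fold change of Txnip was -0.46, or -0.32 relative to that median, and the gene was called lower (limma, adjusted p = 0.0492). The span listed for Txnip, chr3:96555768-96566801, is that of the antisense RNA Gm15441 as well. That RNA was at 0.221 to 0.377 FPKM in the leukemic and at 0.276 to 0.466 FPKM in the preleukemic samples, and the strand setting of the counting is not given in the sources used here. The 5 genes nearest in profile to Txnip, by the measure used for Nr3c1, were Tnrc6c, Slc37a2, Zfp85, Tgfbr1 and B3gntl1, at distances of 0.0560 to 0.0766 against a median of 0.283 over the 10534 genes compared.

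Zbtb16 encodes PLZF, a zinc finger factor of progenitors and of innate-like T and NK lymphocytes that is strongly induced by glucocorticoids in other tissues. It was hardly detected and did not pass the filter. It was at 0.0414, 0.0279, 0.01 and 0.0298 FPKM in preleukemic replicates 1 to 4, where 0.01 is the floor of the table, and at 0.0266, 0.105 and 0.126 FPKM in leukemic replicates 1 to 3. At the depth of each library and for its longest annotated transcript, these values correspond to about 2.99, 1.96, 0.673 and 1.96 fragments and to about 2.0, 7.95 and 9.97 fragments. The groups overlapped, and the difference in mean log2(FPKM + 1), leukemic less preleukemic, was 0.08 (exact two-sided permutation test, p = 0.229, where 0.0571 is the smallest p that the 35 labellings allow). Zbtb16 lies at chr9:48654297-48835945 (minus strand), and the 596 genes tested on chromosome 9 had a median log2 fold change of 0.22.

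**Figure D3:**
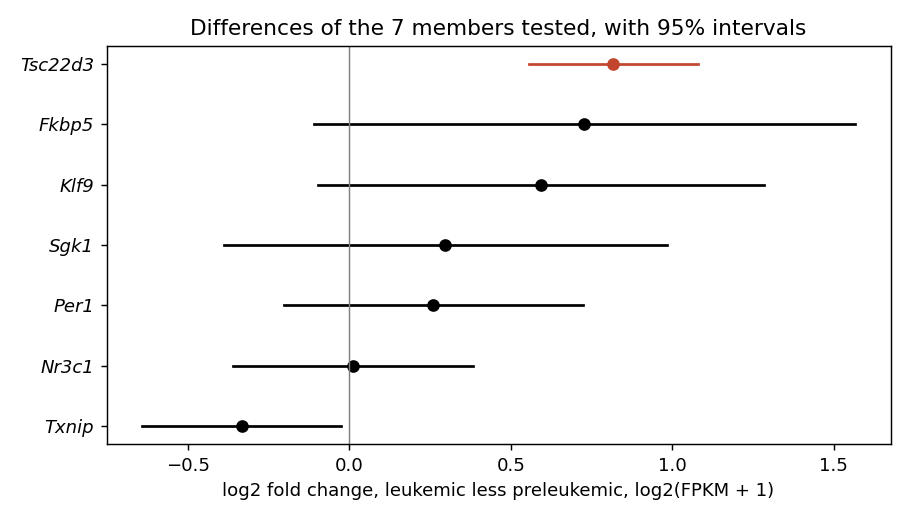
Log2 fold change, leukemic less preleukemic, on the log2(FPKM + 1) scale for the 7 members tested, with 95% intervals from limma. The interval of Tsc22d3 (0.56 to 1.08, red) lies well above 0, that of Txnip (-0.64 to -0.02) ends just below 0 without passing the adjusted threshold, and the others span 0.

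Ordered by mean level per length, the preleukemic cells had Txnip first, then Sgk1, Tsc22d3, Nr3c1 and Fkbp5, whose ranges over the 4 samples did not overlap with the next in order. Per1 and Klf9 followed with overlapping ranges, and Zbtb16 was last. In the leukemic cells the range of Sgk1 overlapped those of Txnip above it and Tsc22d3 below it, which did not overlap each other, the ranges of Fkbp5 and Nr3c1 overlapped below them, and those of Klf9 and Per1 overlapped next.

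The leukemic sample with the highest value differed between members. Relative to the preleukemic mean on the log2(FPKM + 1) scale, leukemic replicate 1 was highest for Fkbp5 (1.72), with Per1 at 0.57 and Sgk1 at 0.62. Leukemic replicate 2 was highest for Klf9 (1.25) and below the preleukemic mean for Sgk1 (-0.49), Txnip (-0.53) and Nr3c1 (-0.32). Leukemic replicate 3 was highest for Sgk1 (0.76). Tsc22d3 was at 0.82, 0.84 and 0.79 in the same 3 samples.

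**Figure D4:**
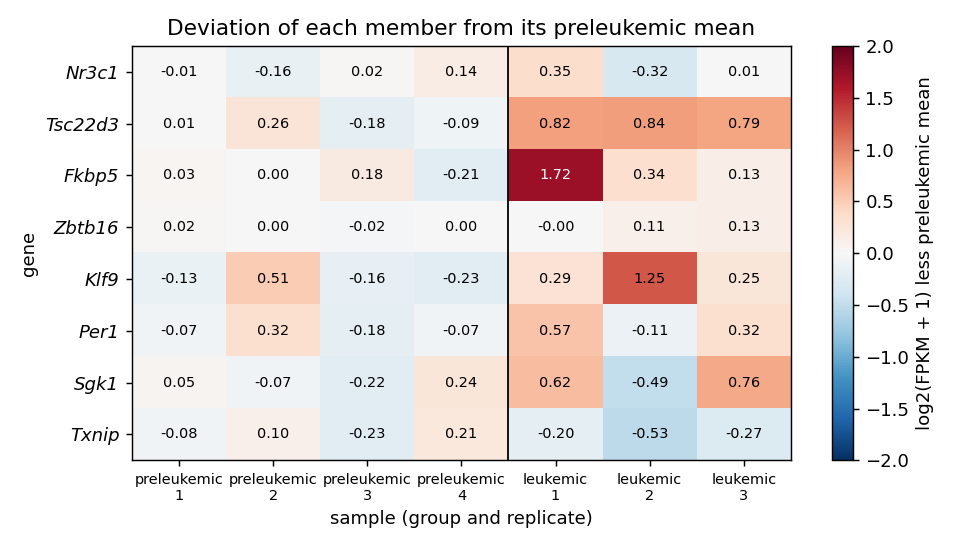
Deviation of log2(FPKM + 1) from the preleukemic mean for each member (rows) in each sample (columns), with the value printed in each cell, red above and blue below 0. Tsc22d3 is alike in the 3 leukemic samples, whereas Fkbp5 is led by leukemic replicate 1 (1.72) and Klf9 by leukemic replicate 2 (1.25).

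Of the 20 genes of the machinery around the receptor, 18 were tested. By limma at the adjusted threshold 2 rose and 2 fell (8.47% and 6.26% of all genes tested). At an unadjusted p under 0.05, 2 were higher and 8 lower, and the groups did not overlap for 2 higher and 7 lower (14.9% and 17.1% of all genes tested), with a median log2 fold change of -0.15 against -0.02 over all genes tested. Hsp90ab1, the constitutive HSP90, was at 926 to 1062 FPKM in the preleukemic and at 1504 to 1682 in the leukemic samples (log2 fold change 0.65, limma, adjusted p = 0.00819). It also lies on chromosome 17, and with quantile normalization it was no longer called (0.35, adjusted p = 0.0629). The inducible Hsp90aa1 was at 120 to 157 against 137 to 158 FPKM (0.15, adjusted p = 0.358). Bag1, a co-chaperone that links HSP70 to the receptor, rose, with 81.7 to 86.0 FPKM in the preleukemic and 109 to 111 in the leukemic samples (0.38, adjusted p = 0.0151).

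H6pd, which supplies NADPH to the enzyme that regenerates active corticosteroid, fell, with 12.1 to 16.2 FPKM in the preleukemic and 7.48 to 10.2 in the leukemic samples (log2 fold change -0.64, limma, adjusted p = 0.0264). Smarca4, the ATPase of the chromatin remodeler that the receptor recruits, was at 232 to 340 and 149 to 247 FPKM (-0.64, adjusted p = 0.0688), with overlapping groups. Nr3c2, the mineralocorticoid receptor, which binds the same hormone, stayed below the filter, at 0.0637 FPKM or less in every sample.

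Among 25 other genes known to be induced by glucocorticoids, 18 were tested. By limma at the adjusted threshold 3 rose and 0 fell, against 8.47% and 6.26% of all genes tested, which is near the background. At an unadjusted p under 0.05 there were 4 and 2, and the median was -0.01. Cebpb, a transcription factor of myeloid and stress responses, was at 0.223 to 1.23 FPKM in the preleukemic and at 5.43 to 11.3 in the leukemic samples (log2 fold change 2.42, limma, adjusted p = 0.00960). Dusp1, a phosphatase that switches off MAP kinases and lies on chromosome 17, was at 4.55 to 4.98 and 10.1 to 17.9 FPKM (1.24, adjusted p = 0.0123). Ddit4, an inhibitor of mTORC1, was at 30.3 to 35.6 FPKM in the preleukemic samples and at 163, 45.5 and 129 in leukemic replicates 1 to 3 (1.59, adjusted p = 0.0380). As for Sgk1, leukemic replicate 2 was the lowest leukemic sample for Ddit4.

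The most abundant genes of that list did not pass. Anxa1, which encodes the anti-inflammatory annexin A1, was at 202 to 213 FPKM in the preleukemic and 158 to 254 in the leukemic samples (log2 fold change -0.14, limma, adjusted p = 0.575), and Cxcr4, a homing receptor, was at 93.3 to 136 and 90.2 to 131 (-0.03, adjusted p = 0.926). Il7r, the receptor chain for IL-7, was at 107 to 158 and 79.3 to 92.2 FPKM without overlap (-0.51, adjusted p = 0.0628). Cebpb is also a myeloid gene, and the neutrophil and macrophage sums were higher in the same samples, a link that was not tested.

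Of 14 clock genes, 11 were tested, and 0 rose and 2 fell by limma (8.47% and 6.26% of all genes tested). At an unadjusted p under 0.05 there were 1 and 4, and the median log2 fold change was -0.29. Arntl, the BMAL1 activator of Per1, was at 35.2 to 43.1 FPKM in the preleukemic samples and at 3.76, 15.4 and 18.1 in leukemic replicates 1 to 3 (log2 fold change -1.85, limma, adjusted p = 0.0358). Nr1d2, a nuclear receptor that represses Arntl, was at 9.55 to 13.5 and 4.83 to 8.15 FPKM (-0.75, adjusted p = 0.0339). Its relative Nr1d1 ranged from 14.8 to 24.6 FPKM in the preleukemic samples and was at 2.93, 26.0 and 8.03 in leukemic replicates 1 to 3 (-1.02, adjusted p = 0.248), and Tef, an output gene of the clock, was at 10.9 to 19.9 and 12.7 to 14.1 (-0.08, adjusted p = 0.793).

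Of 17 relatives and partners of the members, 16 were tested. By limma 1 rose and 2 fell (8.47% and 6.26% of all genes tested), and at an unadjusted p under 0.05 there were 1 and 4. The groups did not overlap for 1 higher and 6 lower (14.9% and 17.1% of all genes tested). The median log2 fold change was -0.21 against -0.02 over all genes tested. Txn2, the mitochondrial thioredoxin, was at 71.8 to 77.8 FPKM in the preleukemic and 94.6 to 113 in the leukemic samples (log2 fold change 0.45, limma, adjusted p = 0.0172), and the cytosolic Txn1, which Txnip inhibits, was at 214 to 254 and 221 to 303 (0.15, adjusted p = 0.394). Foxo1, a transcription factor that SGK1 phosphorylates and shuts out of the nucleus, fell, with 144 to 179 and 57.2 to 104 FPKM (-0.95, adjusted p = 0.0277). Nedd4l, a ubiquitin ligase that SGK1 inhibits, fell, with 9.15 to 11.6 and 5.12 to 8.35 FPKM (-0.61, adjusted p = 0.0467). Tsc22d4, a relative of Tsc22d3, was at 133 to 156 and 96.3 to 124 FPKM (-0.34, adjusted p = 0.0784), the opposite sign to Tsc22d3.

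Immediate early genes, which answer to growth signals within minutes, went both ways. Of the 12 genes, 8 were tested, and 3 rose and 1 fell by limma (8.47% and 6.26% of all genes tested). At an unadjusted p under 0.05 there were 3 and 2, and the median was 0.13. Fos, a subunit of the AP-1 factor that GILZ binds, was at 0.611 to 1.85 FPKM in the preleukemic samples and at 6.61, 2.31 and 13.3 in leukemic replicates 1 to 3 (log2 fold change 1.88, limma, adjusted p = 0.0410). Ier3, which also lies on chromosome 17, was at 0.01 to 0.761 and 1.67 to 5.32 FPKM (1.78, adjusted p = 0.0226), and Nr4a1, an orphan nuclear receptor, at 0.635 to 1.48 and 3.80 to 7.09 (1.53, adjusted p = 0.0163). Egr1, a zinc finger factor induced through ERK, fell, with 19.5 to 32.8 and 7.32 to 15.7 FPKM (-1.20, adjusted p = 0.0278). The more abundant Ier2 (-0.51, adjusted p = 0.115), Junb (0.01, adjusted p = 0.980) and Jun (0.17, adjusted p = 0.606) did not pass.

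**Figure D5:**
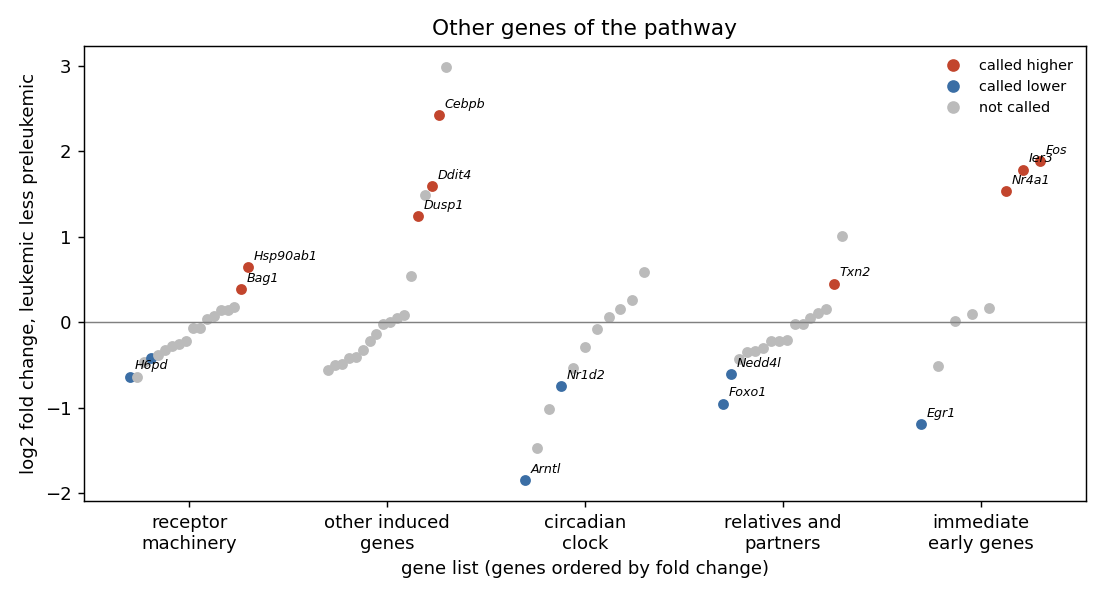
Log2 fold change, leukemic less preleukemic, of every tested gene of the 5 lists, ordered within each list, with genes called higher in red, lower in blue and not called in grey. Of the named genes Cebpb lies highest among those called (2.42) and Arntl lowest (-1.85).

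Of the 17 genes called among the members and these lists, 3 (Tsc22d3, Hsp90ab1 and Cebpb) kept their call when any single sample was left out. The call was lost without preleukemic replicate 4 for all the other 14, without preleukemic replicate 3 for all of these but Dusp1, and for Ddit4, Fos and Nedd4l in 6 of the 7 fits with a sample left out.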

How the data were processed

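RNA of splenic B-cell precursors (all sorted, per the labels) from Eμ-Ret mice, 4 of them preleukemic and 3 leukemic, was sequenced by the authors from stranded mRNA libraries. The authors deposited 1 table of FPKM values (length- and depth-scaled fragments) with no value below 0.01. The processing notes of the authors name STAR 2.5.0b, bedtools 2.17.0, Cufflinks 2.2.1, Bowtie, DESeq2 and the mm10 build, with no role or order. The authors describe DESeq2 on counts. FPKM is not a count, so that test was replaced, while the threshold of 0.05 was kept and the number 10 of its count filter was applied to summed FPKM, which is stricter than 10 counts.

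Samples were grouped and numbered by their labels. Columns carried the labels of the samples. Of the 24341 genes, 10541 had FPKM values that summed to 10 or more over the 7 samples. They were compared on log2(FPKM + 1), which understates the change of low genes. The tool was limma 3.58.1 (R 4.3.3), fitted to all 7 samples by lmFit and moderated by eBayes, with a trend on the mean level, no covariate, and Benjamini-Hochberg adjustment. The member below the filter was compared by an exact permutation test. The fit was tested on simulated data. Depth was derived from the steps between low values in 1678 genes that have only 1 transcript, longer than 2000 bases, at an assumed fragment length of 200 bases, and 75.4% to 80.9% of these values were whole multiples within 0.1 fragment. It covers counting only. Tables and figures used Python 3.11.15, numpy 2.4.6, pandas 2.3.3, scipy 1.17.1 and matplotlib 3.10.9.

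The members, the gene lists and the tests were chosen with earlier results of these data known. Named are the members, the genes called in each list, the 3 most abundant genes per list, markers of the sorted cells and the 5 profiles nearest to Nr3c1 and to Txnip, the member target with the highest mean. Ptprc, Enpep, Nr3c2 and Gm15441 were named besides, after their values were seen. A called gene of the receptor machinery is not reported here by name, though it stays in the counts. Of the list genes, 3 had no row (Ahsp, Ly6g and Trac). Positions are those of the deposited table, and strands and overlaps are from GENCODE M21. Promoters are from RefSeq (GRCm38.p6). Alternatives were other pseudocounts, filters and scalings, a fit without the trend, the replicate number as a block, and leaving out each sample.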

Additional observations from a re-analysis of the deposited data

Results flagged for a closer look

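In the preleukemic group of 4, the highest and the lowest sample of each gene were examined by Dixon's criterion at 95%. For 6 of the 51 genes examined the highest sample lay far from the other 3. Chance gives about 1 in 20 for independent, normally distributed values. FPKM are skewed and related genes move together, so the count cannot be read as an excess over chance. Klf9 was at 6.043 FPKM in preleukemic replicate 2 and at 3.21 to 3.52 in the others. In the same replicate Il7r was at 158.1 FPKM (others 107 to 111) and Fos at 1.846 FPKM (others 0.611 to 0.788). Preleukemic replicate 1 stood out for Hba-a1 (400.5 FPKM, others 26.8 to 38.2), Hbb-bt (212.9 FPKM, others 12.8 to 19.8) and Ier3 (0.761 FPKM, others 0.01 to 0.0827). The leukemic group of 3 was not examined in this way.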

How the results depend on the processing

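Of 328 alternatives compared over all results, 242 kept their direction and side of the threshold, or a count within 1.5 times. Tsc22d3 was called in all but the fit with a replicate block (log2 fold change 0.79, adjusted p = 0.137), in which limma called 0 of 10541 genes (2429 at an unadjusted p under 0.05), and 0 in each list and direction. The labels do not say that the replicate numbers pair the samples. The deviations of same-numbered samples correlated at 0.0294, 0.0502 and -0.0925, and those of other pairs at -0.113 to 0.112. With so few pairs these values cannot decide whether the numbers pair the samples. The 1553 calls became 951 (548 higher, 403 lower) with a filter sum of 70, 706 (428 and 278) without the filter, and 2577 (721 and 1856) with FPKM scaled to the sum without globin genes, which moved the median of all genes by -0.12. Higher calls made up 57.5% as reported, 28.0% under that scaling and 45.4% with quantile normalization. Leaving out a sample gave 149 to 1620 calls (107 to 870 higher, 42 to 750 lower). Preleukemic replicates gave the lowest counts: 932, 443, 271 and 149 without replicates 1 to 4.

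Nr3c1 reversed to -0.11 with the globin scaling, -0.16 without leukemic replicate 1 and -0.04 without preleukemic replicate 2, and ranged from -0.16 to 0.18 with a sample left out. Txnip was called at -0.46 (adjusted p = 0.0492), 1 member lower, with the globin scaling. Sgk1 was called at 0.69 (adjusted p = 0.0273), and 2 members were higher, without leukemic replicate 2, and its range was 0.064 to 0.69. With a sample left out 1 to 2 members were called higher and 0 lower. The log2 fold change then ranged from 0.76 to 0.90 for Tsc22d3, 0.23 to 1.03 for Fkbp5, 0.27 to 0.77 for Klf9, 0.10 to 0.45 for Per1 and -0.41 to -0.23 for Txnip.

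Of the receptor machinery, 1 gene was higher and 0 lower without the filter, 1 was higher with quantile normalization, and 8 were lower with the globin scaling. Of the other induced genes, 1 was higher with the filter sum of 70, and 1 was lower with quantile normalization and 2 with the globin scaling. Of the clock genes, 1 was higher and 0 lower without the filter, and 1 was lower with the filter sum of 70. Of the relatives and partners, 2 were higher and 0 lower without the filter, 1 was lower with the filter sum of 70 and 1 without the trend, and 6 with the globin scaling. Of the immediate early genes, 0 were higher with the filter sum of 70, and 0 in either direction without the filter. With a sample left out, the machinery had 1 to 2 higher and 0 to 3 lower, the other induced genes 1 to 3 and 0 to 2, the clock 0 to 1 and 0 to 4, the relatives 0 to 2 and 0 to 2, and the immediate early genes 0 to 3 and 0 to 1. Causes were not tested. With 7 samples and no counts, small changes of low genes such as Zbtb16 could not be resolved.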

Other observations

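Bhlhe40, a clock repressor that is also induced by glucocorticoids in several tissues and was singled out after its values were seen, did not pass the filter but was separated between the groups. It was at 0.233, 0.282, 0.248 and 0.227 FPKM in preleukemic replicates 1 to 4 and at 2.24, 2.13 and 2.25 FPKM in leukemic replicates 1 to 3. Like Tsc22d3, and unlike Fkbp5, its values in the 3 leukemic samples lay close together. All leukemic samples lay above all preleukemic samples for 14.9% of the genes tested. Other genes of these lists below the filter were separated in this direction too, and some overlapped. The share among all genes below the filter was not counted.

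The metallothionein genes Mt1 and Mt2, which bind metal ions and answer to zinc as well as to glucocorticoids, were also singled out after their values were seen. Mt2 was at 11.8, 9.84, 0.839 and 0.208 FPKM in preleukemic replicates 1 to 4 and at 23.7, 30.8 and 45.6 FPKM in leukemic replicates 1 to 3, and did not pass the threshold (log2 fold change 2.99, limma, adjusted p = 0.0589). Mt1 was at 16.0, 43.8, 6.78 and 4.12 FPKM and at 26.5, 36.0 and 49.2 FPKM in the same order (1.49, adjusted p = 0.175). Both covered a wider fold range among preleukemic samples than any of the 7 members tested.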
